A study of Rattus norvegicus with 8 samples.

Results

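Gene expression in clusters of small hepatocyte-like progenitor cells (SHPCs) from rat livers that had received bone marrow-derived mesenchymal cells (BM-MCs) was compared with that in SHPC clusters from control livers. The comparison used 6 of the 8 samples of the series, 3 of SHPCs with BM-MCs and 3 of control SHPCs, which were taken by their labels and not by any measured value. The remaining 2 samples were mature hepatocytes (MHs) of control livers, and they are given only as side values. All animals were F344 rats treated with retrorsine (Ret), an alkaloid that blocks the division of resident hepatocytes, followed by partial hepatectomy (PH). Per the methods, Ret was injected 2 times, the BM-MCs were primary cultures from dipeptidylpeptidase IV-positive donors infused through the spleen, and SHPC clusters of recipient livers were examined 14 days later, although the day of harvest is not given for the array samples themselves. The labels give all samples the dipeptidylpeptidase IV-positive strain, whereas the methods describe female recipients of the negative strain. Each sample was RNA of many cells cut from frozen sections by laser microdissection (LMD), so a cluster's hepatocytic cells were measured together with whatever sinusoidal and blood cells lay within the cut. No label or method links a sample to its animal, and the p-values therefore measure the spread between these samples, which may be technical.

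SHPCs are small, proliferating hepatocytic cells that appear in clusters after Ret/PH, when MHs cannot divide. They carry traits of fetal hepatoblasts and of differentiated hepatocytes, enlarge, and are replaced or mature as the liver regains its mass. Hepatocytes leaving the cell cycle lower the transcripts of DNA replication and mitosis, and differentiated hepatocytes are known for secreted plasma proteins, cytochrome P450 enzymes and bile acid and lipid metabolism.

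Levels are given as log2 of the array signal relative to the 75th percentile of the same array, so that a value of 0 is that percentile and a difference of 1 is a doubling. Levels of different genes come from different probes and are not set against each other. Of 14534 genes tested, 12862 were well above background on all 5 SHPC arrays whose background marks were complete, and these are called well detected. Between 57.0% and 61.5% of spots were well above background on each array, and no spot was saturated. On the first principal component of the 6 samples, which held 42.6% of the variance, control SHPC replicates 1 and 2 lay at -47.5 and -44.0, control SHPC replicate 3 at -5.94, and the 3 BM-MC samples between 19.5 and 48.1. Control SHPC replicate 3 shared its set of 4 arrays on the slide with the 3 BM-MC samples, whereas the other 2 controls lay on the other set, so that slide position and transplantation largely coincide and cannot be fully told apart. The difference between the mean of the BM-MC samples and control SHPC replicate 3 alone is therefore given as the value within 1 set.

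Alb, serum albumin, was at 7.19, 6.90 and 7.22 in the controls and at 6.83, 7.04 and 7.06 with BM-MCs. The groups overlapped for Alb, as they did for Ttr, Apoa1, Hnf4a, Cps1 and Tat. Summed over the 22 genes of the hepatocyte list, the linear signal was 1263 to 1476 times the 75th percentile in controls and 1161 to 1391 times with BM-MCs. Of the 22, 2 (9.09%) were higher and 1 (4.55%) was lower in every BM-MC array, beside 12.6% higher and 12% lower over all well-detected genes. The counts were 1 higher and 9 lower with each array centred on its median and 3 higher and 8 lower without BM-MC replicate 3. Cebpa and Onecut2, which encode liver transcription factors, were the higher ones, by 0.29 and 0.57 on the log2 scale (0.10 for Cebpa with each array centred on its median), and Tdo2, the hepatic tryptophan dioxygenase, was lower by 0.68. Mesenchymal cells are the donor type. Of 10 tested genes of the bone marrow mesenchymal list 0 were higher and 2 (20%) were lower (Fn1 at -0.15 and Nt5e at -0.12), beside the same all-gene shares. Of the 10 differences 3 were positive, and 1 gene was higher without BM-MC replicate 2. With 1 sample left out Fn1 reached -0.10 and Nt5e -0.06. Against control SHPC replicate 3 alone they were at -0.11 and -0.23. Thy1 overlapped between groups, and Prrx1 and Fap were not above background on enough arrays to be tested.

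Among well-detected genes, 1615 were higher on every BM-MC array than on every control array, 12.6% of the 12862, and 1542 were lower on every BM-MC array, 12% of the 12862. Centring each array on its median, which moved the median log2 difference over all genes from 0.01 to -0.18, changed this split to 632 higher and 3688 lower, so counts of a list are read against these shares and not against each other. Such centring moves each gene's log2 difference down by 1 common amount, so that the gains given here become smaller and the losses larger. Normexp background correction was applied to the complete arrays and so also left out control SHPC replicate 2. Of 145 non-overlapping genes taken by the naming rule, this setting moved the difference of 40 by over 1.5 times and turned the sign of 0, whereas leaving out control SHPC replicate 2 alone moved 2 by as much. Values given below with normexp lack that control. The differences were mostly small. The median was 1.34-fold among the genes that were higher and 1.23-fold among those that were lower. At least 2-fold differences without overlap were found for 146 genes that were higher (1.14%) and 57 genes that were lower (0.443%). At an adjusted p under 0.05 from limma, 5 of 23111 probes were higher (0.0216%) and 0 were lower (0%), the 5 being both probes of Onecut1 and 1 probe each of LOC102549203, Macf1l1 and Or10ag59. Macf1l1 and Or10ag59 were not above background in controls and passed the filter on dim probes only through the BM-MC arrays, on which they were high, so that their calls are no support for a difference. With a floor for dim spots 3 probes were called, and 0 without the filter or with the slide set or replicate number as a block. At an unadjusted p under 0.05 limma gave 2465 higher and 1369 lower. Genes with dim probes contributed most of the large gains. Among the 4287 well-detected genes with the lowest probe signal, 94 were at least 2-fold higher and 25 at least 2-fold lower without overlap, against 19 and 10 among the 4288 with the highest signal. In those brightest genes the small differences leaned the other way, with 9.73% of genes higher and 16.3% lower.

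**Figure D1:**
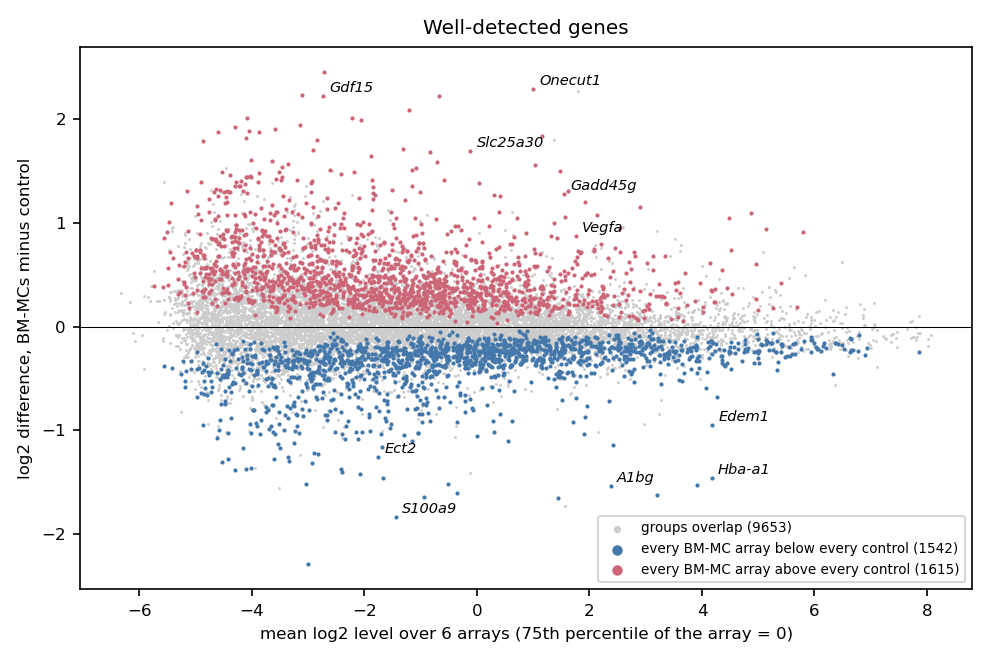
Each point is 1 well-detected gene, with its mean log2 level over the 6 SHPC arrays (0 is the 75th percentile of the array) on the horizontal axis and the log2 difference, BM-MCs minus control, on the vertical axis. Red points (1615) are genes with every BM-MC array above every control array, blue points (1542) the reverse, and grey points (9653) genes whose groups overlapped. The large positive differences lie mostly at low levels, and the blue points extend into the brightest genes with small differences.

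The largest gain among named, well-detected genes was in Onecut1, which encodes a liver transcription factor. It was at -0.16, -0.20 and -0.09 in controls and at 2.14, 1.97 and 2.31 with BM-MCs, 4.89-fold higher. The 2 MH samples, at 0.53 and 0.17, lay above all 3 controls. The second tested probe of Onecut1 differed by 2.16 on the log2 scale. For the brighter probe the adjusted p from limma was 0.023, a call that was lost with the slide set or replicate number as a block, without the filter on dim probes, with the methods' t-test after Benjamini-Hochberg adjustment, and on leaving out BM-MC replicate 1 or 2 or control SHPC replicate 1 or 2. LOC102549203, which has only a locus name, was at -1.99, -1.70 and -1.66 in controls and at 0.50, 0.24 and 0.60 with BM-MCs, and its adjusted p from limma was 0.025, a call lost under the same alternatives. Gdf15, a secreted stress cytokine of the transforming growth factor family, was at -3.94, -3.77 and -3.83 in controls and at -2.17, -1.02 and -1.67 with BM-MCs. The groups were far apart for Gdf15, 4.68-fold, while its adjusted p from limma was 0.080. Slc25a30, a mitochondrial carrier, was at -0.93, -1.05 and -0.91 in controls and at 0.93, 0.35 and 0.91 with BM-MCs, 3.23-fold higher (adjusted p = 0.068 from limma). Onecut1, Gdf15 and Slc25a30 differed from control SHPC replicate 3 alone by nearly as much as from the control mean, by 2.23, 2.21 and 1.64.

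Tp53inp1, a p53-induced nuclear protein, was 3.21-fold higher by its brightest probe, but its 4 tested probes differed by 1.68, 0.45, 1.86 and -0.11, so that its probes disagree in size and sign. The other genes in the 12 largest gains were Mageb3, Tpcn2 (a lysosomal cation channel), Zan, Sap25, Sec14l4, Rbm15 (an RNA-binding protein of the m6A writer complex), Akap8l and Sstr3 (a somatostatin receptor). Their log2 differences ran from 1.49 for Sstr3 to 1.88 for Mageb3. Normexp put Mageb3 at 0.71, Sec14l4 at 0.70 and Rbm15 at 0.96. For several of these the gap was mostly to control SHPC replicates 1 and 2. Against control SHPC replicate 3 alone, Sec14l4 differed by 0.48, Rbm15 by 0.72 and Akap8l by 0.93. Zan went the other way, with 2.86 against control SHPC replicate 3 and 1.70 against the control mean.

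Among genes with brighter probes, and chosen after their values were seen, Pigr, the receptor that carries polymeric immunoglobulin into bile, was at 4.14, 4.05 and 4.77 in controls and at 5.13, 5.68 and 5.45 with BM-MCs. Lmnb1, the nuclear lamin B1, was at 0.77, 0.81 and 1.32 in controls and at 1.94, 2.60 and 2.28 with BM-MCs. Sik1, a salt-inducible kinase that responds to cAMP, was at 1.19, 0.92 and 0.98 in controls and at 1.85, 2.17 and 2.23 with BM-MCs. None of these 3 genes had overlapping groups, and their log2 differences of 1.10, 1.31 and 1.06 had adjusted p-values from limma of 0.15, 0.13 and 0.091. Control SHPC replicate 3 was the control nearest to the BM-MC samples for Pigr and Lmnb1, and against it alone they differed by 0.65 and 0.96.

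The 12 largest losses were dominated by transcripts of blood cells. S100a9, a calcium-binding protein abundant in neutrophils, was at -0.71, -0.33 and -0.54 in controls and at -2.28, -2.73 and -2.08 with BM-MCs. The groups were separated by more than a doubling at their closest arrays, and the log2 difference was -1.84 (adjusted p = 0.068 from limma). S100a8, its partner, differed by -1.46 and Retnlg, a neutrophil resistin-like protein, by -1.30 (-0.57 with normexp). These were all 3 well-detected members of the granulocyte list, whose summed signal over its 4 tested genes was 1.14 to 1.59 in controls and 0.383 to 0.502 with BM-MCs. The other 11 genes of that list, Mpo, Elane and Ngp among them, were not above background on enough arrays to be tested. A smaller number of these cells in the captured tissue and less RNA per cell cannot be told apart in such samples.

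Haemoglobin genes made up 7 of the 12 largest losses. Hba-a1, an alpha globin, was at 4.36, 4.30 and 6.05 in controls and at 3.26, 3.34 and 3.73 with BM-MCs. Control SHPC replicate 3 was highest by a wide margin, and the log2 difference of -1.46 became -0.89 without it. Hba-a2, Hbb, Hbb-b1, Hbb-bs, Hbbl1 and Hbe2 differed by -1.52 to -1.65, and their near-identical sequences can share signal between probes. Over the 8 tested erythroid genes, the summed signal was 14.1 to 41.6 in controls and 6.18 to 9.59 with BM-MCs, and Alas2, the erythroid enzyme of haem synthesis, was at -3.46, -3.32 and -1.41 in controls and at -4.07, -4.16 and -3.72 with BM-MCs. The erythroid list's median of -0.94 was -0.55 without control SHPC replicate 3. The 2 MH samples differed from each other, with erythroid sums of 7.63 and 14.3 and granulocyte sums of 0.399 and 1.54. Transcripts of blood cells moved with the SHPC groups, but the blood left in the cut tissue was not measured. Its part in the other differences was not tested.

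The remaining losses of that size were in genes with other roles. A1bg, a plasma glycoprotein secreted by the liver, was at 3.13, 3.12 and 3.21 in controls and at 2.22, 1.66 and 0.95 with BM-MCs. Controls agreed closely while the BM-MC samples spread over more than a doubling, and the log2 difference was -1.54 (adjusted p = 0.14 from limma). Zfp354a, a zinc-finger protein, differed by -1.51. Trim59, a ubiquitin ligase found in dividing cells, was at -1.42, -1.36 and -1.30 in controls and at -3.17, -3.25 and -1.93 with BM-MCs, with BM-MC replicate 3 nearest to the controls. Outside the rule by which genes were named, Aldh1b1, a mitochondrial aldehyde dehydrogenase of progenitor cells, was at 2.95, 2.89 and 3.10 in controls and at 2.18, 1.59 and 1.76 with BM-MCs, a log2 difference of -1.14 (adjusted p = 0.10 from limma).

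**Figure D2:**
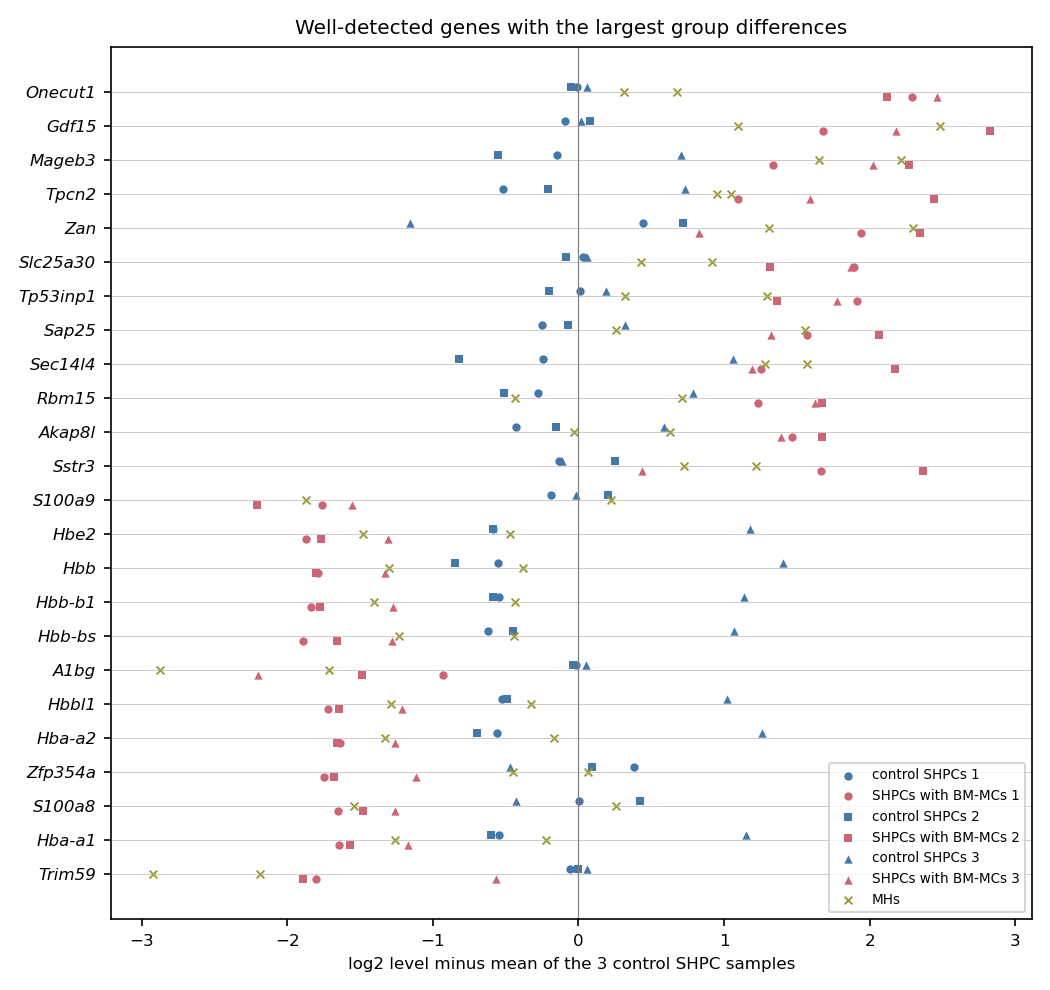
The 12 well-detected named genes with the largest gain and the 12 with the largest loss without overlap between groups, from top to bottom. Each symbol is 1 array, drawn as its log2 level minus the mean of the 3 control SHPC arrays (blue for control, red for BM-MCs, a cross for each MH array), and control SHPC replicate 3 (blue triangle) stands well above the other controls for the 7 haemoglobin genes.

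Markers of other liver cell types were described by the same counts, beside 12.6% higher and 12% lower over all well-detected genes. Among well-detected members, the higher shares were 5.88% for Kupffer cell, 15.4% for endothelial and 25% for stellate genes. The lower shares were 25% for biliary, 28.6% for lymphocyte and 37.5% for fetal liver genes, lists of only 8, 7 and 8 such members. Each of these lists had 0% in the other direction. Of 17 tested Kupffer cell and macrophage genes 1 was higher without overlap (Cd163, a haemoglobin scavenger receptor, by 0.55) and 0 were lower, and their summed signal was 58.6 to 85.3 in controls and 72.5 to 99.6 with BM-MCs. The list's median of 0.16 was 0.57 against control SHPC replicate 3 alone and -0.04 with each array centred on its median, when 0 were higher and 1 was lower. Without BM-MC replicate 3, 7 were higher and 1 lower, and leaving out control SHPC replicate 3 gave 1 higher and 4 lower with a median of -0.09. Clec4f and Cd68, which define Kupffer cells and macrophages, overlapped between groups. Of 14 tested sinusoidal endothelial genes 2 were higher, Stab2 by 0.37 and Kdr by 0.32, with sums of 20 to 21.4 in controls and 21.1 to 22.8 with BM-MCs. Centring each array on its median put Stab2 at 0.18 and Kdr at 0.13, with 1 gene higher, 2 lower and the list's median at -0.10 instead of 0.09, and against control SHPC replicate 3 alone that median was -0.09. Without BM-MC replicate 3, 4 were higher. Of 16 stellate cell and fibroblast genes 4 were higher, Ecm1, Rgs5, Des and Pdgfrb, by 0.24 to 0.86, and 0 were lower, with a median of 0.21. With normexp Rgs5, Des and Pdgfrb were at 0.29, 0.17 and 0.13, and leaving out control SHPC replicate 2 alone put Pdgfrb at 0.15. With each array centred on its median 0 of the 16 were higher and the median was 0.02, with quantile normalization 2 were higher, without BM-MC replicate 3, 7 were higher, and without BM-MC replicate 1, 4 were higher and 3 lower. Their sums of 18.1 to 20.3 in controls and 18.1 to 27.6 with BM-MCs overlapped, and the collagen gene Col1a1 did too. Of 12 tested biliary and ductular genes 3 were lower, Epcam by 0.43 and Cd24 by 0.42 among the well-detected ones, with Cldn4 dim. Krt19 and Sox9 overlapped. The median over the 8 well-detected biliary genes was -0.42, and it was -0.24 with normexp, -0.62 with each array centred on its median and -0.11 against control SHPC replicate 3 alone. Without BM-MC replicate 1, 5 of the 8 were lower. Of 9 tested lymphocyte genes, 7 of them well detected, Cd3g and Cd3d were lower, by 0.58 and 0.30, and Cd3e and Cd79a were not tested. The summed signals of this list overlapped, at 3.99 to 4.78 in controls and 3.88 to 4.92 with BM-MCs, and its median of 0.01 ranged from -0.19, leaving out control SHPC replicate 3, when 4 were lower, to 0.19, leaving out control SHPC replicate 1. Of the fetal liver list, 3 of 8 well-detected members were lower, Cd24, Aldoa and Mdk, by 0.31 to 0.42, whereas Afp, the classical fetal liver transcript, overlapped.

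Genes of mitosis and chromosome segregation had the largest share of lower members among the functional lists on the main scale. The respiratory chain list, with 65 of 73 lower, had the larger share with each array centred on its median, and the replication list, with 36 of 39, when control SHPC replicate 3 was left out. Of 62 well-detected members 48 (77.4%) were lower on every BM-MC array and 0 were higher, and the median log2 difference was -0.81, against 0.01 over all genes. That count includes separation from control SHPC replicate 3, against which alone the median was -0.62. It was 49 to 53 with each sample left out in turn, and 51 with each array centred on its median. The BM-MC samples differed among themselves, with list medians of -1.11, -0.79 and -0.49 in replicates 1, 2 and 3, each measured from the mean of the controls, while the 2 MH samples lay far lower, at -2.50 and -2.27.

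Depdc1, which is needed for spindle assembly, was at -3.64, -3.36 and -3.83 in controls and at -5.32, -5.08 and -4.60 with BM-MCs. Ect2, the exchange factor that starts cleavage furrow ingression, was at -1.10, -1.01 and -1.29 in controls and at -2.80, -2.51 and -1.85 with BM-MCs. Ube2t, a ubiquitin-conjugating enzyme of crosslink repair that was kept in this list, differed by -1.31. With normexp Depdc1 was at -0.67 and Ube2t at -0.87. BM-MC replicate 3 was the closest to the controls for these genes and for 42 of the 48 lower members. Mki67, the usual marker of cycling cells, was at 0.14, 0.48 and -0.01 in controls and at -1.02, -0.60 and -0.25 with BM-MCs, and its 4 tested probes differed by -0.53 to -0.83. No gene of the list had an adjusted p from limma under 0.05. The members whose groups overlapped included Aurkb at -0.01, and Pbk, which was not well above background on every array, lay outside the 62.

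**Figure D3:**
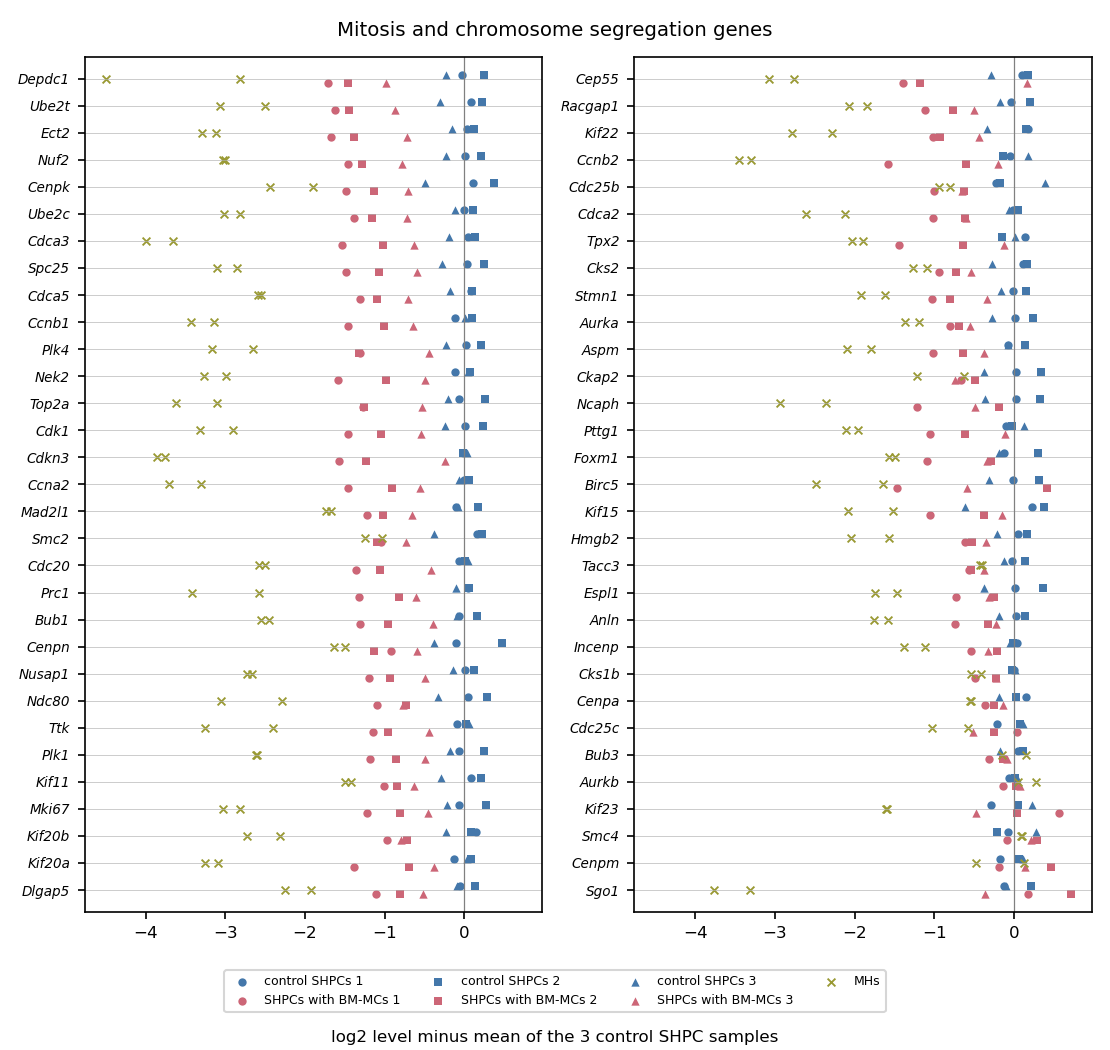
The 62 well-detected mitosis and chromosome segregation genes, ordered by log2 difference from the largest loss (top left) to the largest gain (bottom right). Each symbol is 1 array, drawn as its log2 level minus the control SHPC mean, and for most genes the 3 red BM-MC symbols lie between the blue controls and the crosses of the 2 MH arrays, with BM-MC replicate 3 (red triangle) nearest the controls.

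The promoters of mitotic genes often carry a CCAAT box, bound by NF-Y, and a cell cycle homology region (CHR), bound by the DREAM complex in quiescent cells, and Depdc1 is shown as the member with the largest difference that held both. Promoters are RefSeq sequences of the GRCr8 build in a fixed window across the annotated start, and they were available for 42 of the 48 lower members. The letters of the CHR (TTTGAA) were found on either strand in 29 of the 42 (69.0%), against 18.1% of all 27457 promoters in the table and 12.1% of the promoters of well-detected genes. CCAAT was found in 34 (81.0%), against 37.7% of all promoters and 38.2% of those of well-detected genes. Of the members that were not lower without overlap, 9 of 12 held the CHR letters, so that the letters marked the list and not its lower part. Capitals mark both motifs.
Depdc1, chr2:251343031-251343330, plus strand: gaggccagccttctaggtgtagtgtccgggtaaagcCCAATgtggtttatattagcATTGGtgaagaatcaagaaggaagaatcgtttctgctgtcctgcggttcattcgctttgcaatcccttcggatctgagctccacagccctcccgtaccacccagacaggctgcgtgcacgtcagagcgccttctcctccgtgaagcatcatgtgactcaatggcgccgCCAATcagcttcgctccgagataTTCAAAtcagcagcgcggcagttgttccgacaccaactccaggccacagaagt

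DNA replication genes followed the same direction with a stronger dependence on the samples. Of 39 well-detected members of the replication and S phase list, 19 (48.7%) were lower on every BM-MC array and 0 were higher, with a median of -0.66 that was -0.28 against control SHPC replicate 3 alone. Leaving out control SHPC replicate 3 gave a count of 36, and leaving out BM-MC replicate 3 gave 31. Rrm2, the regulatory subunit of ribonucleotide reductase, was at 2.57, 2.83 and 1.88 in controls and at 1.05, 1.5 and 1.61 with BM-MCs. Here control SHPC replicate 3 was close to BM-MC replicate 3, although the groups did not overlap. Ccne2, cyclin E2, was at -2.15, -2.09 and -2.63 in controls and at -3.81, -3.48 and -3.24 with BM-MCs, a log2 difference of -1.22. Outside the 39, Clspn, a checkpoint adaptor of replication forks, was well above background on all 3 BM-MC arrays and on neither complete control array. A motif often bound by E2F (GGCGGGAA) was found on either strand in 3 of the 13 lower members with a promoter, in 3 of the 17 others, in 2.02% of all promoters and in 3.52% of those of well-detected genes. Rfc4, a clamp loader subunit, is shown as the lower member with the largest difference that held it, in capitals.
Rfc4, chr11:91254023-91254322, plus strand: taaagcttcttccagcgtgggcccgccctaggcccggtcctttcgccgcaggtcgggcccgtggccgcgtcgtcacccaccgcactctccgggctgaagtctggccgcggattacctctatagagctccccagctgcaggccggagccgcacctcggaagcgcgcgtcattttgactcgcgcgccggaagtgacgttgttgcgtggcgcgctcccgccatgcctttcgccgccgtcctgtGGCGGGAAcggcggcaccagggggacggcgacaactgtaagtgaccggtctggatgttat

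Of 19 well-detected G1 cyclins and CDK inhibitors, 3 (15.8%) were lower, near the 12% of all genes, Cdkn2b by 0.46, Cdkn1c by 0.25 and E2f4 by 0.18, which encode brakes on the cycle, and 0 were higher. The list's median was 0.005, with 10 of the 19 differences positive, and it was -0.11 against control SHPC replicate 3 alone. Centring each array on its median gave 6 lower, quantile normalization gave 5, and leaving out BM-MC replicate 3 gave 4 higher and 6 lower. Normexp put Cdkn2b at -0.29 and E2f4 at -0.10, and without control SHPC replicate 2 alone E2f4 was at -0.12. Cdkn1a was at 2.61, 2.66 and 2.06 in controls and at 3.17, 3.20 and 1.94 with BM-MCs, so that replicate 3 was lowest in both groups and the groups overlapped. DNA repair genes went both ways, with shares near those over all genes on the higher side and above them on the lower side. Of 49 well-detected members 9 (18.4%) were lower, led by Rad18, Rad54l and Exo1 at -0.81, -0.75 and -0.72, which act in damage tolerance and homologous recombination (Rad18 at -0.41 and Exo1 at -0.40 with normexp), and 7 (14.3%) were higher, led by the translesion polymerase Rev1 at 0.85, with several nucleotide excision repair genes at 0.25 to 0.35 (Ercc2, Ercc4, Ercc6 and Ercc8). With each array centred on its median 3 were higher and 11 lower, and the lower count was 19 when control SHPC replicate 3 was left out.

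Genes of protein synthesis and respiration leaned lower by small amounts, although on the main scale most members of each list were not separated between groups. Of 77 cytosolic ribosomal protein genes 37 (48.1%) were lower on every BM-MC array and 0 were higher, with a median of -0.16. With quantile normalization 18 were lower and the median was -0.10, and with each array centred on its median 57 were lower and the median was -0.36. Rps2 was at 4.54, 4.53 and 4.64 in controls and at 4.13, 4.03 and 4.43 with BM-MCs, and Rps4x and Rps14 differed by -0.37 and -0.33. These genes have many processed copies, and a probe can measure more than its own gene. Against control SHPC replicate 3 alone the list's median was -0.08, and the lower count of 37 became 62 when that sample was left out and 57 when BM-MC replicate 3 was. Of 42 ribosome biogenesis genes 14 (33.3%) were lower and 1 was higher, and Nop58, a core protein of box C/D particles that methylate ribosomal RNA, was at 0.63, 0.59 and 0.29 in controls and at 0.07, -0.07 and 0.04 with BM-MCs. That list had 22 lower members without BM-MC replicate 3, and 26 with each array centred on its median.

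Of 73 respiratory chain genes 32 (43.8%) were lower and 0 were higher, with a median of -0.21, which was -0.28 against control SHPC replicate 3 alone and -0.14 with quantile normalization. With each array centred on its median 65 were lower and the median was -0.40. Atp5mc1, the c subunit of ATP synthase, was at 5.51, 5.62 and 5.49 in controls and at 4.93, 5.26 and 5.17 with BM-MCs. Cox7b, Ndufb5 and Atp5pb differed by -0.41, -0.33 and -0.32. The BM-MC samples had list medians of -0.32, -0.19 and -0.08 in replicates 1, 2 and 3, and without BM-MC replicate 3 the count was 54. Ribosomal and respiratory genes are measured by bright probes, and the shares above stand beside the 16.3% that were lower among the 4288 brightest genes. Tubulins were the members of the cytoskeleton list with the largest differences. Of 44 keratins, actins and tubulins 12 (27.3%) were lower and 1 was higher, and Tubb6, Tuba1b, Tubb5 and Tubb2a differed by -0.68 to -0.53. Leaving out control SHPC replicate 3 gave 25 lower, and leaving out BM-MC replicate 1 gave 20.

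Immediate early genes, the fast transcriptional response to growth factors and stress, had the largest share of gains among the functional lists on the main scale. Of 21 well-detected members 9 (42.9%) were higher on every BM-MC array and 0 were lower, with a median of 0.25. With each array centred on its median 4 were higher and 1 was lower, the median was 0.06, and the ERK feedback list had the larger share, 3 of 13. With normexp, which lacks control SHPC replicate 2, 6 were higher, fewer in share than the chromatin list's 21 of 53 (9 of 21 and 20 of 53 without that control alone). With quantile normalization 7 were higher, beside 13 of 37 interferon-stimulated genes. Other lists also had larger shares with 1 sample left out. Without BM-MC replicate 3, 12 were higher, beside 13 of 22 Hippo genes. Without BM-MC replicate 2, 10 were higher, beside 18 of 37 interferon-stimulated genes. Without control SHPC replicate 3, 9 were higher, beside 9 of 19 circadian, 17 of 37 interferon-stimulated, 14 of 32 cytochrome P450 and 23 of 53 chromatin genes. The 9 were Jun, Nr4a1, Myc, Dusp1, Btg2, Nr4a2, Junb, Ier3 and Jund. Jun, a subunit of AP-1, was at -0.03, -0.12 and -0.53 in controls and at 1.27, 1.28 and 0.55 with BM-MCs. Nr4a1, an orphan nuclear receptor, was at -1.30, -1.30 and -1.11 in controls and at -0.75, -0.11 and 0.26 with BM-MCs. Myc was at -0.60, -0.71 and -0.92 in controls and at 0.62, -0.22 and 0.17 with BM-MCs. No groups overlapped for these genes, and the MH samples lay near the controls for Jun and Myc and below them for Nr4a1, at -3.21 and -2.66. The adjusted p-values from limma were 0.13, 0.18 and 0.17. The cAMP response element (TGACGTCA, which reads the same on both strands) was found in 3 of the 6 higher members with a promoter, in 2 of the 9 others, in 1.91% of all promoters and in 3.15% of those of well-detected genes. Dusp1, a phosphatase that switches off MAP kinases, is shown as the member with the largest difference that held it, in capitals.
Dusp1, chr10:17184603-17184902, plus strand: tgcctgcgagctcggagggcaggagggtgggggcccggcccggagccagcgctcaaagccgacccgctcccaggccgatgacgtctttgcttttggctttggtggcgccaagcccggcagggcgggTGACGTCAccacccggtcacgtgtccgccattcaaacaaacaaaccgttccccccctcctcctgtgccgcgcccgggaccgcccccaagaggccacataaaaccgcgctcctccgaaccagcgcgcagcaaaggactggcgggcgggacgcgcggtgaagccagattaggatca

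Of 13 well-detected feedback regulators of ERK signalling 4 (30.8%) were higher, the phosphatases Dusp1, Dusp8 and Dusp5 and the inhibitor Spred3, by 0.85, 0.85, 0.29 and 0.78, and 0 were lower. With normexp Dusp1 and Spred3 were both at 0.29, and the list's median of 0.07 was -0.12 with each array centred on its median. Of 45 MAPK cascade kinases 7 (15.6%) were higher, close to the 12.6% of all genes, and 0 were lower, with a median of 0.06 (-0.13 with each array centred on its median, when 2 were higher and 7 lower). Among these were Map3k2, Mapk12 and Egfr at 0.62, 0.60 and 0.51, which with normexp were at 0.17, 0.34 and 0.46. Without BM-MC replicate 3, 18 were higher, and without control SHPC replicate 3, 11. Among 32 growth factors and receptors 5 (15.6%) were higher and 3 (9.38%) lower, near the shares over all genes, and the counts were 3 higher and 7 lower with each array centred on its median and 12 higher and 6 lower without BM-MC replicate 3. Vegfa, the endothelial growth factor, was at 1.05, 1.15 and 1.76 in controls and at 1.94, 2.30 and 2.34 with BM-MCs. Its difference of 0.88 was 0.44 against control SHPC replicate 3, and Nrg1 was higher by 0.71 whereas the prolactin receptor Prlr was lower by 0.43.

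Of 30 well-detected p53 target genes 6 (20%) were higher and 2 (6.67%) were lower, with a median of 0.15 that was -0.04 with each array centred on its median and 0.24 without BM-MC replicate 3, where 15 were higher. The higher count was 10 without control SHPC replicate 3, 9 without control SHPC replicate 2, and 11 with normexp, which also lacks replicate 2. Gadd45g, a stress sensor that was kept in this list, was at 0.85, 1.08 and 0.80 in controls and at 2.23, 2.33 and 2 with BM-MCs. The arrays of each group lay close together, and the log2 difference was 1.28 (adjusted p = 0.068 from limma). Mdm4 and Btg2 were higher by 0.71 and 0.77, whereas Cdkn1a, given above, overlapped between groups with a log2 difference of 0.32.

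Of 36 well-detected cytokine receptor and STAT genes 7 (19.4%) were higher and 1 was lower, with a median of 0.08. With each array centred on its median 2 were higher and 4 lower and the median was -0.11. Without BM-MC replicate 3 the count was 14. Cish, a STAT5-induced inhibitor of cytokine signalling, was at -3.59, -3.69 and -3.62 in controls and at -2.37, -2.44 and -1.89 with BM-MCs. Its difference of 1.40 had an adjusted p of 0.070 from limma and was 1.39 against control SHPC replicate 3. Il17b was higher by 0.93 (0.44 with normexp) and Socs3, a target of STAT3, by 0.56. Il6r, the interleukin-6 receptor, overlapped.

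Of 37 well-detected interferon-stimulated genes 13 (35.1%) were higher and 0 were lower, with a median of 0.19. With each array centred on its median 2 were higher and 1 lower, and the median was -0.0018, while over all genes it was -0.18. Mx1, an antiviral GTPase, was at -1.09, -0.98 and -0.86 in controls and at 0.18, -0.05 and -0.37 with BM-MCs. Bst2, the membrane protein tetherin, was at 2.39, 2.77 and 2.03 in controls and at 2.88, 3.16 and 3.02 with BM-MCs. Both groups were separate for these genes, by a narrow margin for Bst2. Irf3, Usp18, Gbp2 and Irf7 differed by 0.72, 0.69, 0.51 and 0.45, and Stat2 and Irf9, which are parts of the interferon-activated factor, by 0.15 and 0.27. The interferon-stimulated response element, searched on either strand as GAAA, any 2 bases and GAAA, was found in 6 of the 10 higher members with a promoter and in 12 of the 20 others, against 3.77% of all promoters and 3.27% of those of well-detected genes. Bst2 is shown as the higher member with the largest difference that held it. The capitals mark overlapping matches.
Bst2, chr16:18254918-18255217, minus strand: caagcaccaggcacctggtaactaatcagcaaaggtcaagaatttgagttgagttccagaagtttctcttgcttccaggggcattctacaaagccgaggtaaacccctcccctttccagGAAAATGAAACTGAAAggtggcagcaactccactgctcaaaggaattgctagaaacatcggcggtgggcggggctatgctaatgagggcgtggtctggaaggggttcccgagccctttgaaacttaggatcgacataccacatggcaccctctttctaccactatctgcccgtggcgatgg

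Several lists of regulators had more gains than the 12.6% of all genes. In the Hippo list, 6 of 22 well-detected members (27.3%) were higher and 1 was lower, with a median of 0.23 that was 0.04 with each array centred on its median. Vgll4, which competes with YAP for TEAD factors, was at -2.07, -1.92 and -1.91 in controls and at -0.81, -1 and -0.94 with BM-MCs. Ccn1, a secreted matrix protein and YAP target, was at -1.31, -1.43 and -1.53 in controls and at -0.64, -0.60 and -0.61 with BM-MCs. For both genes the BM-MC samples lay close together, and the differences of 1.05 and 0.81 had adjusted p-values from limma of 0.068 and 0.088. Taok3 and Tead3 were higher by 0.81 and 0.48, and Sav1, a core scaffold of the pathway, was lower by 0.24. Without BM-MC replicate 3, 13 members of this list were higher.

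Of 53 chromatin modifiers 15 (28.3%) were higher and 4 (7.55%) lower, with a median of 0.16 that was -0.03 with each array centred on its median, when 8 were higher and 9 lower. The gains included the acetyltransferase Kat6b at 0.98, the DNA demethylase Tet2 at 0.74 and the histone methyltransferase Kmt2d and demethylase Kdm6b at 0.63 each. With normexp Kat6b was at 0.48, Tet2 at 0.25, Kdm6b at 0.41 and Kmt2d at 0.64. Without control SHPC replicate 3 the higher count was 23. Of 48 spliceosome and RNA processing genes 12 (25%) were higher and 6 (12.5%) lower. Gains included Ddx17, an RNA helicase, at 0.88, the kinases Prpf4b and Clk1 at 0.75 and 0.70 and Prpf19, a ubiquitin ligase of the spliceosome, at 0.63, and losses included Snrpd1, a core particle protein, at -0.42 and the branch-site factor Sf3a1 at -0.35. With normexp Ddx17 was at 0.32 and Prpf19 at 0.39. Clk1 was at 0.60, 0.78 and 0.93 in controls and at 1.38, 1.67 and 1.36 with BM-MCs, and the second probe of Prpf4b went the other way, at -0.08. The median of the splicing list was 0.06, and it was -0.13 with each array centred on its median, when 9 were higher and 14 lower. Without BM-MC replicate 1, or without control SHPC replicate 3, 19 of its members were higher.

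In the circadian list, 7 of 19 well-detected genes (36.8%) were higher and 1 was lower, with a median of 0.12. Centring each array on its median gave 3 higher and 3 lower and a median of -0.07, and leaving out BM-MC replicate 3 gave 9 higher and 3 lower and a median of 0.28. Dbp, an output transcription factor of the clock, was at 1.45, 1.64 and 0.86 in controls and at 2.15, 3.37 and 2.04 with BM-MCs. Bmal1, whose phase is opposite to that of Dbp, was at -1.89, -1.88 and -0.93 in controls and at -2.42, -3.59 and -1.96 with BM-MCs. BM-MC replicate 2 was the extreme sample for both genes and control SHPC replicate 3 the extreme control, in opposite directions for each gene. Nfil3, Tef, Cry2, Bhlhe40, Nr1d2 and Per3 were higher by 0.75, 0.64, 0.49, 0.40, 0.37 and 0.35. The hour of harvest of each liver is not stated in the labels or methods, and its part in these differences was not tested.

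Of 32 well-detected cytochrome P450 and drug metabolism genes 4 (12.5%) were higher and 0 were lower, with a median of 0.15 that was -0.04 with each array centred on its median. Cyp2b2, the phenobarbital-inducible P450, was at -0.29, -0.20 and -0.50 in controls and at 1.22, 1.09 and 0.50 with BM-MCs, and Nr1i3, the nuclear receptor CAR that controls it, was at -2.20, -1.81 and -2.24 in controls and at -0.63, -0.72 and -1.58 with BM-MCs. Both were separate between groups, with differences of 1.27 and 1.10, and BM-MC replicate 3 was the lowest of its group for each. Cyp2c13 and Cyp2c11, which depend on the male pattern of growth hormone in rats, were higher by 1.36 and 0.46 (0.30 for Cyp2c11 with normexp), whereas Cyp1a2 overlapped. Against control SHPC replicate 3 alone the list's median was 0.05. Leaving out control SHPC replicate 3 gave 14 higher, BM-MC replicate 3 gave 12 and BM-MC replicate 1 gave 7. Of 22 well-detected nuclear receptors 2 (9.09%) were higher, Nr1i3 among them, and 1 was lower, the oestrogen receptor Esr1 by 0.57, with 1 higher and 4 lower when each array was centred on its median and 7 higher when either BM-MC replicate 1 or control SHPC replicate 3 was left out. Esr1 ranged from -0.71 to -0.34 with 1 sample left out and was at -0.92 against control SHPC replicate 3 alone.

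Of 36 fatty acid oxidation and ketogenesis genes 4 (11.1%) were higher, Vnn1, Cpt1b, Ehhadh and Eci1, the first 3 by 0.85, 0.78 and 0.68, and 1 was lower, Cpt2 by 0.19 (-0.13 with normexp). The list's median of 0.13 was -0.06 against control SHPC replicate 3 alone and -0.07 with each array centred on its median, when 1 was higher and 7 lower. Leaving out control SHPC replicate 3 gave 15 higher, BM-MC replicate 3 gave 9 and BM-MC replicate 2 gave 7. In the cholesterol list 3 of 23 (13.04%) were lower, near the 12% of all genes, Idi1 by 0.43 among them, and 0 of the well-detected members were higher. Centring each array on its median gave 6 lower, leaving out control SHPC replicate 3 gave 7, and BM-MC replicate 3 gave 5 with 2 higher. Idi1, an isomerase of isoprenoid synthesis, was at -1.08, -1.08 and -1.42 in controls and at -1.61, -1.74 and -1.54 with BM-MCs, without overlap. Genes of the unfolded protein and ATF4 responses were split, with 5 of 35 (14.3%) higher and 6 (17.1%) lower, which became 3 and 11 with each array centred on its median and 7 and 11 without BM-MC replicate 3. Edem1, which sends misfolded glycoproteins to degradation, was at 4.60, 4.63 and 4.73 in controls and at 3.85, 3.52 and 3.73 with BM-MCs, a difference of -0.95 (adjusted p = 0.085 from limma). Psat1, an enzyme of serine synthesis, was lower by 1.17 on the log2 scale, and Trib3 and Calr were higher by 0.65 and 0.73.

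Of the 21 further lists, which covered other metabolic, secretory, matrix, junction and stress functions, 47 of 621 well-detected members (7.57%) were higher and 44 (7.09%) were lower, both below the shares over all genes as a pool. Single lists went above them, and the heat shock list had the largest shares in each direction, with 4 of 21 (19.05%) higher and 5 (23.81%) lower. Their medians lay between -0.13 and 0.12. Against control SHPC replicate 3 alone they ranged more widely, from -0.40 for amino acid catabolism and -0.34 for the urea cycle list to 0.21 for chemokines and receptors, and the amino acid catabolism median of -0.05 was 0.11 when that control was left out. The acute phase list had 0 of 23 members in either direction, but 8 lower with each array centred on its median and 5 lower without control SHPC replicate 3.

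**Figure D4:**
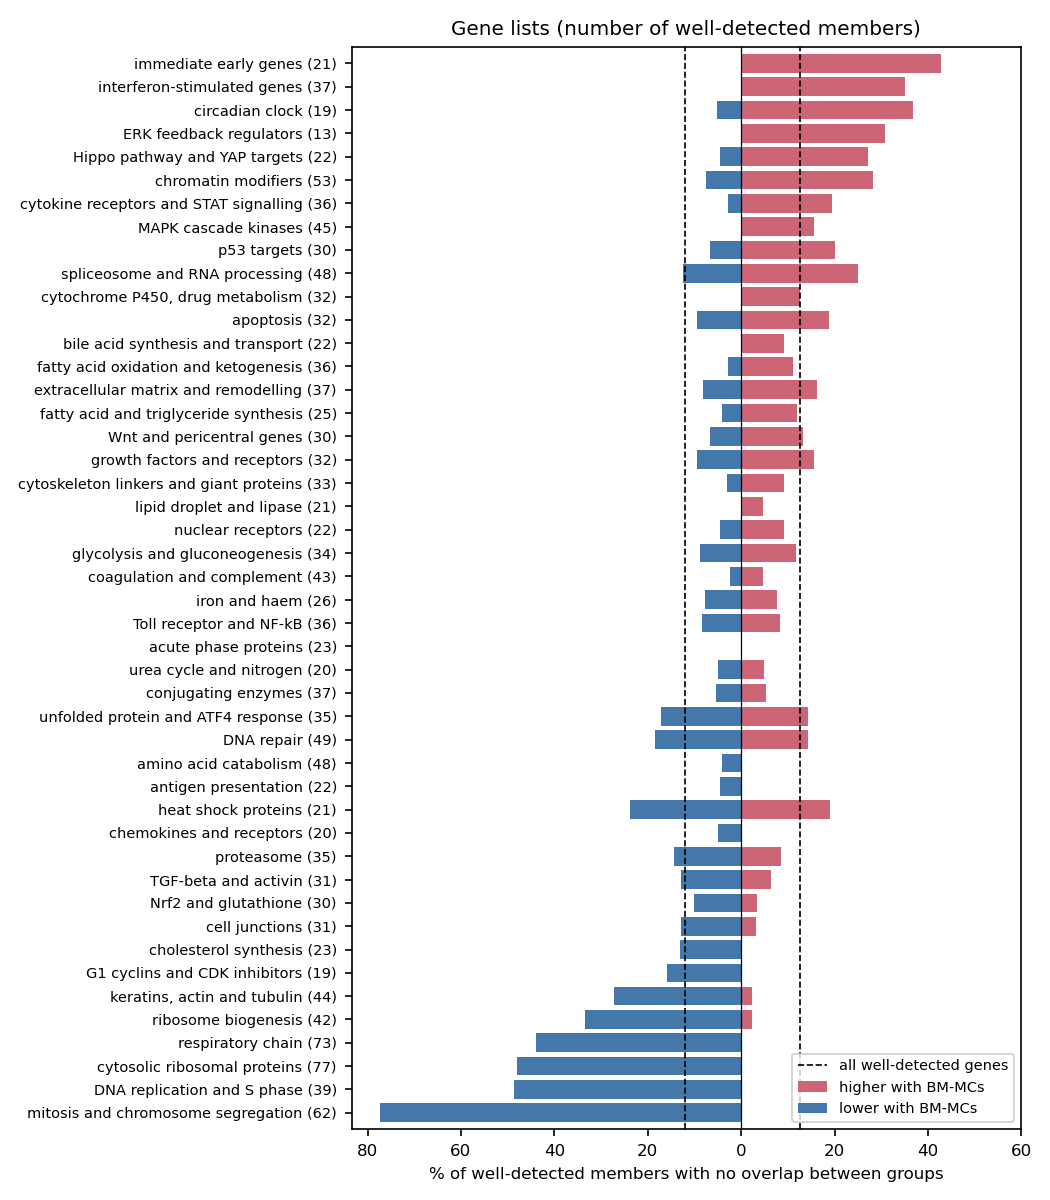
For each functional list with at least 10 well-detected members (number in brackets), the bars give the percentage of members that were higher (red, to the right) or lower (blue, to the left) on every BM-MC array than on every control array. Dashed lines mark the 12.6% higher and 12% lower over all well-detected genes, and the mitosis list reaches 77.4% lower while the immediate early list reaches 42.9% higher. Centring each array on its median turns the all-gene shares to 632 higher and 3688 lower of the 12862 genes.

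**Figure D5:**
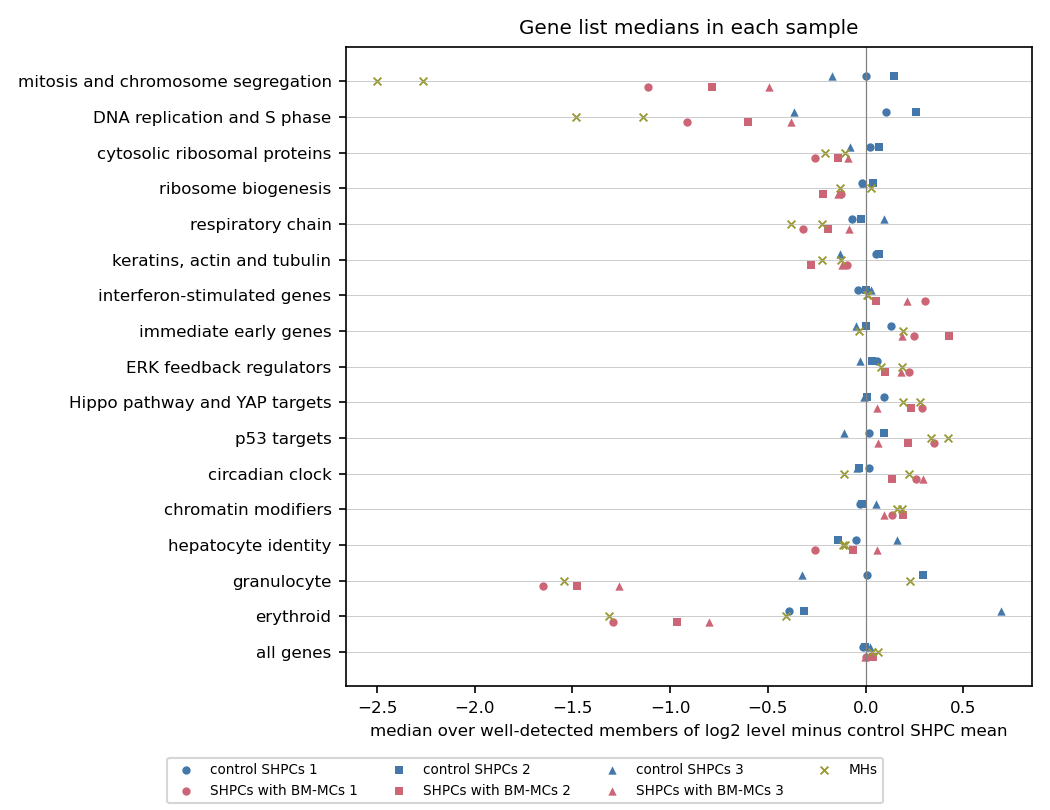
Median over the well-detected members of each list of the log2 level minus the control SHPC mean, for each of the 3 control arrays (blue), 3 BM-MC arrays (red) and 2 MH arrays (crosses). The mitosis medians of the BM-MC arrays (-1.11, -0.79 and -0.49) lie between the controls and the MHs, control SHPC replicate 3 stands out for the erythroid list at 0.69, and the positive list medians for interferon, p53, clock, chromatin and ERK feedback genes are at or below 0 when arrays are centred on their medians.

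Genes of the 2 directions also differed in size. In the RefSeq annotation, available for 85.9% of the higher and 90.4% of the lower genes, the median span was 26.7 kb for higher genes and 16.2 kb for lower genes, against 21.5 kb over all well-detected genes. The lists followed this order in part, with a median span of 3.13 kb for ribosomal protein genes, 7.18 kb for respiratory chain genes and 84.2 kb for chromatin modifiers. The immediate early genes, of which 9 of 21 were higher and 0 lower on the main scale, were short, at 3.80 kb.

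A further 173 genes were well above background on every complete array of 1 group and on none of the other, 135 of them with BM-MCs and 38 in controls. The filter asked for 3 marked arrays, which the 3 BM-MC arrays could meet alone and the 2 complete control arrays could not, so these numbers are not compared. The 6 with the lowest limma p were all dim in controls. With dim arrays set at the lowest signal of their array's probes well above background, Or4a70 was at least 3.57-fold higher, Chrne at least 3.09-fold, LOC103693962 at least 2.68-fold, Or10ag59 at least 1.82-fold, Macf1l1 at least 1.51-fold and LOC102555038 at least 1.37-fold. These bounds hold for the main background treatment only. With normexp, which lacks control SHPC replicate 2, the 6 log2 differences were 1.02, 0.72, 0.56, 0.78, 0.59 and 0.24 in that order. They lay below the log2 bounds of 1.84, 1.63, 1.42, 0.86, 0.60 and 0.46. Chrne encodes the epsilon subunit of the muscle acetylcholine receptor and Or4a70 and Or10ag59 are olfactory receptor genes. The value of Or4a70 in BM-MC replicate 3 was an outlier spot and left out. All 6 passed the filter through the BM-MC arrays, on which they were high, so that the limma p only ordered them and the adjusted p under 0.05 of Macf1l1 and Or10ag59 supports nothing here.

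The study tested vesicles of BM-MCs that carry miR-146a-5p, a microRNA known to repress the Toll receptor adaptors Irak1 and Traf6, and its mature rat sequence is shown with the seed in capitals.
rno-miR-146a-5p: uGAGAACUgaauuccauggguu
The arrays do not measure it. Traf6 was at -4.22, -4.29 and -4.18 in controls and at -4.47, -4.51 and -4.45 with BM-MCs, a log2 difference of -0.25 (adjusted p = 0.29 from limma) with no overlap. Irak1 was at -1.19, -1.32 and -1.08 in controls and at -1.08, -1.35 and -0.99 with BM-MCs, and the groups overlapped. The probes of Irak1 disagreed in sign, as did those of Cdkn1b and Kit. In the Toll receptor and NF-kB list 3 of 36 (8.33%) were higher and 3 lower, both below the shares over all genes, and with each array centred on its median 0 were higher and 4 lower. Leaving out BM-MC replicate 3 gave 8 higher and 4 lower, and BM-MC replicate 1 gave 7 and 4. Both normexp and leaving out control SHPC replicate 2 alone gave 6 higher and 3 lower. Of the other genes that the study discusses, Il17rb was at -7.44, -6.06 and -2.47 in controls and at -4.99, -5.30 and -6.94 with BM-MCs. Its probe was well above background on 2 of the 3 BM-MC arrays and on 1 of the 2 complete control arrays, and the groups overlapped. Casp9, Cdkn2a, Cdkn1b and Kit overlapped between groups, with log2 differences of 0.27, 0.14, 0.05 and -0.03. By qRT-PCR on microdissected SHPCs, the study reported Il17rb, Kit and Cyp1a2 as higher with BM-MCs. It found no significant differences for Cdkn2a and Cdkn1b, and it reported more IL-17RB protein by staining. These are other measures than the array probes.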

How the data were processed

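LMD-captured cells were profiled on Agilent rat arrays of 1 colour. As deposited by the authors, each value is an intensity, the background-subtracted processed signal of Agilent Feature Extraction 10.7 with no scaling between arrays. For control SHPC replicate 2 the scanner output covers 20903 of 62976 features. Its signals were therefore read from the value table, which matched the other arrays' scanner signals within a relative difference of 1.19e-06, and its background marks were not used. Signals were put on the log2 scale relative to each array's 75th percentile, outlier spots were left out and spots of 1 probe averaged. The 23111 of 45598 probes that were marked well above background on 3 or more of the 7 complete arrays were tested in the 6 SHPC samples with limma 3.58.1 (R 4.3.3) and Benjamini-Hochberg adjustment, after a test on simulated data. The number of arrays limits the precision. Each gene was represented by its brightest tested probe. Through RefSeq, 21109 probes were named by accession, 6684 by symbol and 424 by synonym, while 7628 kept the file's name and 9753 had none. Groups did not overlap where all 3 arrays of 1 group lay above all 3 of the other. Named genes were the 12 largest differences in each direction, up to 4 non-overlapping members of each list, genes the study discusses and up to 6 genes dim in 1 group. Other genes named were chosen after their values were seen, and some genes that the rule names are not reported here. The genes, 56 lists and tests were chosen with earlier results of these data known. Alternatives were other scalings, background corrections and filters, probe averaging, slide set or replicate number as a block, the methods' t-test, and leaving out each sample.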

Additional observations from a re-analysis of the deposited data

How the results depend on the processing

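The count of probes past an adjusted p of 0.05 in limma (5 higher and 0 lower) depended on the processing. It was 3 higher with normexp background correction on complete arrays, which also leaves out control SHPC replicate 2, with probes above background on every complete array, or with a floor for dim spots, and 0 higher without a filter on dim probes, with the slide set as a block or with the methods' t-test after Benjamini-Hochberg adjustment. Unadjusted, that t-test gave 1876 higher and 1577 lower. Leaving out single samples gave 0 to 490 higher and 0 to 40 lower, with 490 and 40 when control SHPC replicate 3 was left out, 16 and 4 without BM-MC replicate 3, and 0 and 0 without any other sample. Deviations from the group means correlated at 0.133, 0.0784 and 0.171 between samples of the same replicate number, and each sample but control SHPC replicate 2 correlated best with its own number. The numbers were not taken as a pairing, and with the replicate number as a block 0 probes were called. Genes without overlap numbered 632 higher and 3688 lower with each array centred on its median, and 1888 to 2989 higher and 1913 to 2648 lower with 1 sample left out, where fewer arrays alone allow more separation. A slide set block changes no array value and was not applied to these counts. Among named genes, directions reversed in 19 of the values recomputed, all in genes with overlapping groups. Centred on the median these were Cdkn2a (-0.047, and -0.077 with quantile normalization), Cdkn1b (-0.14) and Irak1 (-0.13). With the slide set as a block they were Cdkn1b (-0.11), Il6r (0.038) and Irak1 (-0.054). With 1 sample left out, Il17rb ranged from -1.48 to 1.01, Cdkn1b from -0.050 to 0.21, Kit from -0.18 to 0.10 and Irak1 from -0.015 to 0.16. Over all probes of a gene the means were -0.050 for Cdkn1b and 0.33 for Kit.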
